A study of Mus musculus with 12 samples.

Results

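Livers without Prkch, which encodes the kinase PKC eta, were compared with livers that carry it, in mice that all lack Apoe. Of the 12 arrays of the study, 4 were of liver and make up the comparison, chosen by their labels alone. The 2 knockout arrays came from Prkch-/-Apoe-/- mice and the 2 control arrays from Apoe-/- mice, which the labels call wt although they lack Apoe as well. On all 4 arrays the liver came from C57BL/6J males aged 20 weeks that had eaten high-fat diet for 12 weeks and were in the re-fed state, and was taken after perfusion with saline. The labels call the 2 arrays of each genotype biological replicates and do not say how many mice gave RNA to each, so a p-value speaks for the spread between arrays only. Which part of Prkch was removed, how long re-feeding lasted and whether the mice were littermates were not given in the sources used here.

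PKC eta, of the protein kinase C family, is a kinase that diacylglycerol switches on without calcium. Apolipoprotein E carries remnant lipoproteins into the liver, and mice without it hold much cholesterol in the blood and develop atherosclerosis. The liver makes cholesterol through mevalonate and squalene, and the transcription factor SREBP-2 turns on the enzymes of that route when sterols in the endoplasmic reticulum run low. After a meal, insulin and SREBP-1c turn on the enzymes that make fatty acids, while in fasting PPAR alpha turns on the enzymes that burn them.

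In knockout livers Idi1, the isomerase that makes dimethylallyl diphosphate, a building block of cholesterol, rose 3.45-fold, and it was the one gene of 15942 to pass the test (limma, Benjamini-Hochberg adjusted p under 0.05), a share of 0.00627%. By the same limma test no gene passed in the other direction, and at an unadjusted p under 0.05 there were 246 higher genes (1.54%) and 438 lower ones (2.75%). Both knockout arrays lay above both control arrays for 1878 genes (11.8%) and below both for 2866 (18.0%). Most other enzymes of cholesterol synthesis also lay higher on both knockout arrays, while genes of lipid-laden macrophages, lipid droplets, PPAR alpha targets and MHC class II presentation mostly lay lower. Values are log2 units of a probe set, so that 1 unit is a 2-fold difference. The ± after a difference is its moderated SE from limma (n = 2 and 2). Moderation draws each gene's variance toward that of all genes. This SE therefore understates the spread of a gene whose 2 arrays of a genotype lie far apart.

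The 4 arrays had medians between 5.88 and 5.93 and correlated pairwise at r between 0.985 and 0.992 across genes. Knockout replicate 1 stood apart from the other 3: on the first principal component, which held 48.3% of the variance, it lay at 23.6 and the others between -9.70 and -5.59. The median gene differed by 0.168 between the knockout arrays and by 0.132 between the control arrays, and 87 genes (0.546%) against 39 (0.245%) differed by over 1 unit. Medians of gene lists are therefore mostly given on each knockout array as well as for their mean, in the order replicate 1, replicate 2. Of 56 lists, 24 had a median that changed sign when 1 of the 4 arrays was left out. Hepatocyte markers were high on all 4 arrays: Alb, serum albumin, read 14.25 and 14.20 on the control arrays and 14.26 and 14.27 on the knockout arrays. Over all genes the median difference was -0.02, with 6829 genes higher and 9111 lower in knockouts.

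**Figure D1:**
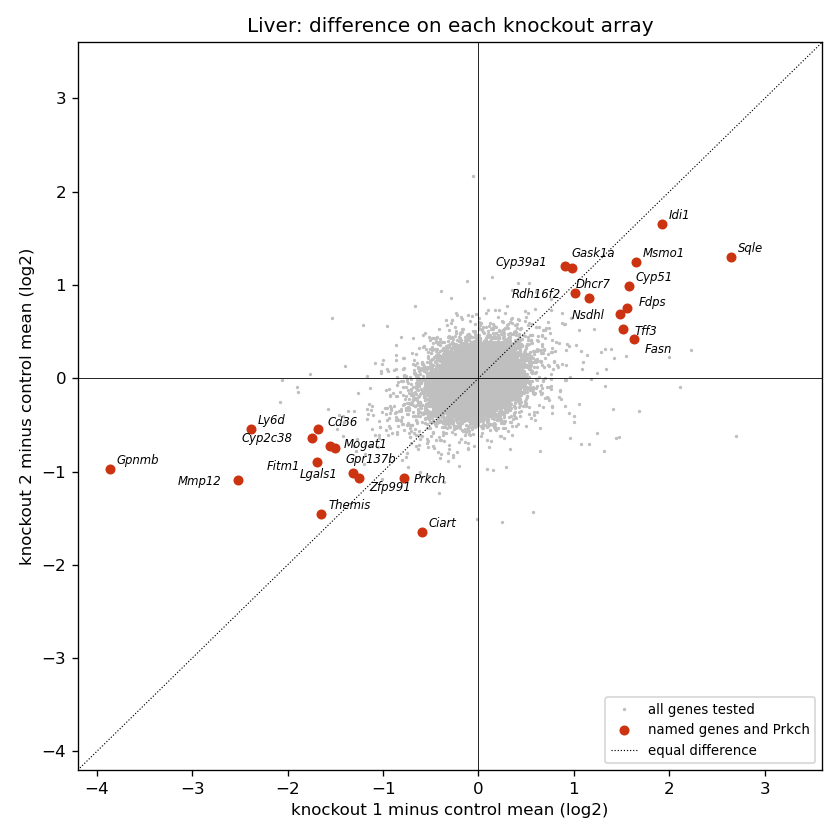
Each gene's difference from the control mean on knockout replicate 1 (horizontal axis, log2) against that on knockout replicate 2 (vertical axis, log2), for all 15942 genes tested (grey) and for Prkch and the genes named by size (red); the dotted line marks equal differences. Gpnmb lies at -3.86 on knockout replicate 1 and -0.97 on knockout replicate 2, while Idi1, at 1.93 and 1.65, and Themis, at -1.65 and -1.45, lie close to the dotted line.

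The targeted gene lay lower in knockouts without passing the test. Its brighter probe set gave 6.57 and 6.87 on the control arrays, then 5.93 and 5.65 on the knockout arrays. Both knockout arrays thus lay below both controls, by -0.92 ± 0.16 or to 52.7% of control (limma, Benjamini-Hochberg adjusted p = 0.573, and 0.0533 to 0.998 over the alternatives). Another probe set of the gene, below the filter on dim genes, gave 4.08 and 4.04, then 3.94 and 4.21. Apoe, which every mouse lacks, still gave 9.12 and 8.96 in the controls and 8.39 and 8.87 in the knockout livers. The sources do not say which parts of either gene were deleted, so neither probe set checks a genotype.

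Of the protein kinase C family and its PKN relatives, 13 genes were tested, 8 lay higher and 5 lower, and the median difference was 0.02. Prkcd, the delta isoform, which diacylglycerol also activates without calcium, differed by -0.40 ± 0.15 and was, with Prkch itself, 1 of the 2 members below both controls, a share near the 18.0% of all genes; it read 7.39 and 7.66 on the knockout arrays. Prkce, the epsilon isoform studied in fatty liver, differed by 0.03 ± 0.14 and Prkca, the alpha isoform, by 0.05 ± 0.14. Among genes close to Prkch on chromosome 12, 20 were tested, and 10 lay higher and 10 lower, with a median of 0.00. Slc38a6, an amino acid transporter gene, read 6.98 and 6.54 in control livers and 7.19 and 7.28 in knockout livers, and Pcnx4, a membrane protein gene, read 5.97 and 5.95 against 6.36 and 6.37. These 2 of the 20 neighbours had an unadjusted p under 0.05, both higher, at 0.48 ± 0.17 and 0.40 ± 0.13, where 1.54% of all genes did so on the higher side.

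Of the 56 gene lists described, the 2 segments of cholesterol synthesis had the highest medians. From mevalonate to squalene 7 of 8 tested enzymes lay higher on both knockout arrays than on either control, with a median difference of 0.67, and after squalene 8 of 11 did, with a median of 0.78. The same count over all genes is 11.8%. Knockout replicate 1 showed the larger shift in both segments, with medians of 0.81 and 1.06 above the control mean, against 0.54 and 0.51 on knockout replicate 2. Only Idi1 passed the test over all genes. Leaving out the first control array gave medians of 0.82 and 0.91, and leaving out the other control gave 0.47 and 0.66.

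The start of 4 of these genes is shown because these are the sterol enzymes among the largest differences that have 1 listed start site: Idi1, the sterol oxidase gene Msmo1, the lanosterol demethylase gene Cyp51 and the sterol dehydrogenase gene Nsdhl. The sequences are the 250 bases upstream of the start site in RefSeq on GRCm38.p6, written 5′ to 3′ on the gene's strand. Capitals mark CCAAT or its reverse complement ATTGG, the core of the element bound by NF-Y, a factor known to work beside SREBP at sterol genes. Idi1 lies at chr13:8885356-8885605 on the plus strand, Msmo1 at chr8:64733579-64733828 on the minus strand, Cyp51 at chr5:4104698-4104947 on the minus strand and Nsdhl at chrX:72918271-72918520 on the plus strand.
Idi1: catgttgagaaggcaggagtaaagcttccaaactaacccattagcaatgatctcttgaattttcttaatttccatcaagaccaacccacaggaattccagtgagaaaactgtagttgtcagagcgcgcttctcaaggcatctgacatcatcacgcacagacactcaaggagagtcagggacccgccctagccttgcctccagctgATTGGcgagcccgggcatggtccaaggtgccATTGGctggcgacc
Msmo1: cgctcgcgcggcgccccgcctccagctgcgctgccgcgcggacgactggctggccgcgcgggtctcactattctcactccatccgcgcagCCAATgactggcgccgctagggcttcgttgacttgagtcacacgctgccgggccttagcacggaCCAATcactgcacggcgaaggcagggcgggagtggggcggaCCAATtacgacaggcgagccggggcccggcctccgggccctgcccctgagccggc
Cyp51: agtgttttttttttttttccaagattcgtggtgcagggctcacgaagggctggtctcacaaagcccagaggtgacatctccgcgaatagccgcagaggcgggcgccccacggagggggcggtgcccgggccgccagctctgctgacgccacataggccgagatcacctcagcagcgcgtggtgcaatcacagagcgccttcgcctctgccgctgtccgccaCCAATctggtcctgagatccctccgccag
Nsdhl: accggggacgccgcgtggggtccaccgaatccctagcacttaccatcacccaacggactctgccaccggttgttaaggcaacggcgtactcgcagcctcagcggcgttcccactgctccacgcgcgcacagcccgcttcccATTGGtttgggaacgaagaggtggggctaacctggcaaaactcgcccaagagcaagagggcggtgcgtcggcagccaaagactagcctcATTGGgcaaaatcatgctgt
The capitals begin 45 and 14 bases upstream of the start of Idi1, 160, 96 and 55 bases upstream in Msmo1, 29 in Cyp51, and 109 and 20 in Nsdhl. On either strand CCAAT occurred in this window of 10 of 10 matched genes of the segment after squalene and 6 of 7 of the segment before it, and in 37.5% of all 27025 genes (33.8% of all 32851 promoters). It also occurred for 8 of 11 matched genes of SREBP control, 8 of 13 of lipogenesis, 7 of 17 of fatty acid oxidation and 4 of 14 of macrophages. Enzyme genes that stayed near the controls carry CCAAT too: Ggps1 has 3, Tm7sf2 has 1, and Lbr and Ebp have 2 each. Sqle, Fdps and Fdft1 had no promoter in the set used. Acat2, the matched gene without CCAAT, was not among the enzymes tested. A sterol element spelled TCACNCCAC was sought on both strands, and the 2 motifs were sought independently of each other. It occurred in 1.22% of all genes (1.05% of all promoters) and, of these enzymes, in Hmgcs1 alone. A match of letters is a description and no measurement of binding.

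Along the pathway, Hmgcs1, which makes HMG-CoA, read 9.14 and 8.64 on the control arrays and 9.77 and 9.48 on the knockout arrays, a difference of 0.73 ± 0.19. The mevalonate kinase gene Mvk differed by 0.51 ± 0.13, the phosphomevalonate kinase gene Pmvk by 0.78 ± 0.28 and the decarboxylase gene Mvd by 0.58 ± 0.17, each with both knockout arrays above both controls. Idi1 read 8.19 and 7.94 in the controls against 9.99 and 9.71 in the knockout livers. The gap between genotypes was thus several times the gap within either, at 1.79 ± 0.16 (limma, Benjamini-Hochberg adjusted p = 0.0463, and 2.6e-04 to 0.253 over the alternatives). A second probe set of Idi1 read 8.12 and 7.93 against 10.03 and 9.73, a difference of 1.85. Fdps, which makes farnesyl diphosphate, read 8.07 and 8.08 in control livers and 9.63 and 8.83 in knockout livers, and the squalene synthase gene Fdft1 differed by 0.62 ± 0.17. Ggps1, which draws farnesyl diphosphate off toward geranylgeranyl diphosphate and away from sterols, differed by -0.03 ± 0.13.

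After squalene, the epoxidase gene Sqle had the largest positive difference of all genes tested. It read 6.21 and 5.63 on the control arrays and 8.57 and 7.22 on the knockout arrays, 3.93-fold higher (limma, Benjamini-Hochberg adjusted p = 0.654). The knockout arrays lay above both controls but differed from each other by 1.34, with replicate 1 the higher. Msmo1, which takes methyl groups off lanosterol products, read 10.09 and 9.62 against 11.51 and 11.10, and Dhcr7, which completes cholesterol, 7.64 and 7.66 against 8.81 and 8.52. Neither pair of genotypes overlapped, at 1.45 ± 0.20 and 1.01 ± 0.15. Cyp51 differed by 1.28 ± 0.24, Nsdhl by 1.09 ± 0.25, the lanosterol synthase gene Lss by 0.78 ± 0.19 and Sc5d, the lathosterol oxidase gene, by 0.55 ± 0.19. The sterol reductase genes Tm7sf2 and Lbr and the isomerase gene Ebp were the members whose genotypes overlapped, at 0.07 ± 0.18, 0.13 ± 0.16 and 0.13 ± 0.14.

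**Figure D2:**
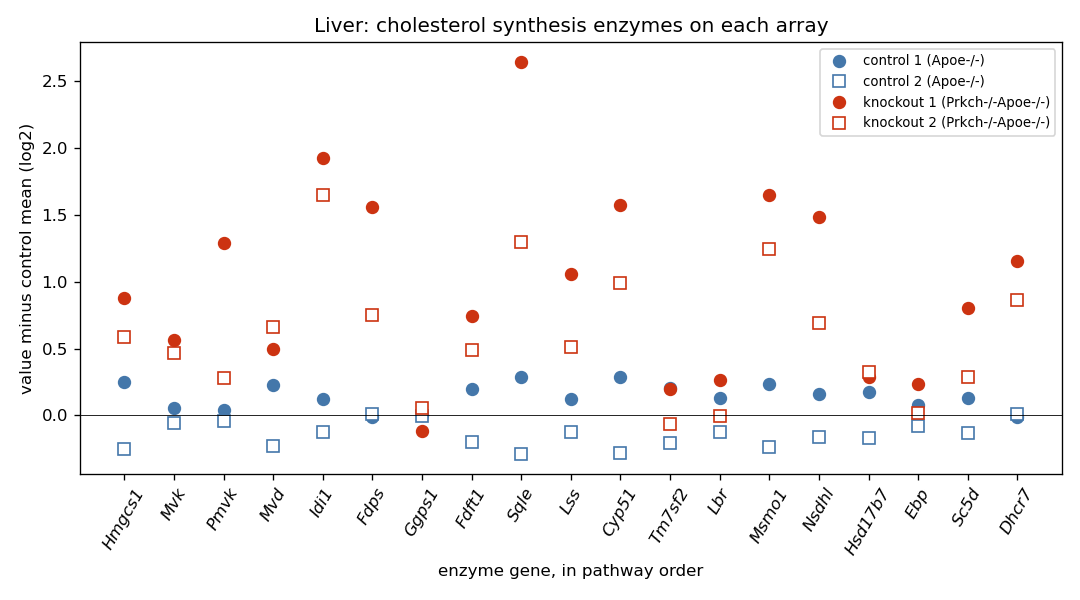
Value minus control mean (log2) on each array for cholesterol synthesis enzymes in pathway order; circles are replicate 1, squares replicate 2, blue controls and red knockouts. Idi1 lies 1.93 and 1.65 above the control mean on the knockout arrays, Sqle 2.65 and 1.30, and Ggps1, Tm7sf2, Lbr and Ebp stay within 0.24 of it on both.

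A mixed list of SREBP control and lipoprotein cholesterol handling did not lie to one side. Of 17 genes listed 11 were tested, and 5 lay higher and 6 lower, with a median of -0.04 (-0.18 and 0.09 on the knockout arrays). Insig1, which holds SREBP back in the endoplasmic reticulum and is itself a target of SREBP, read 10.57 and 10.70 in the controls and 11.84 and 11.16 in the knockout livers, a difference of 0.87 ± 0.21. Stard4, a sterol carrier gene and SREBP-2 target, differed by 0.61 ± 0.20, and in both genes each knockout array lay above each control. Srebf2, the gene of SREBP-2 itself, read 7.62 and 7.56 against 7.83 and 7.80, a small difference of 0.22 ± 0.13. Srebf1 overlapped between genotypes, at 10.32 and 9.94 in control livers and 10.62 and 9.83 in knockout livers. Mylip, which marks the LDL receptor for breakdown and is a target of LXR, the sterol-sensing nuclear receptor, differed by -0.35 ± 0.17.

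Genes of cholesterol export under LXR lay lower. Of 12 tested, 11 lay lower and 7 of these had no overlap between genotypes, where the share over all genes is 18.0%, and the median was -0.28 (-0.32 and -0.17 on the knockout arrays). Pltp, the phospholipid transfer protein gene, read 10.61 and 10.73 on the control arrays and 9.76 and 10.08 on the knockout arrays, a difference of -0.75 ± 0.15. Abcg5 and Abcg8, the paired pump that sends cholesterol into bile, differed by -0.56 ± 0.21 and -0.60 ± 0.19; Abcg8 read 9.79 and 9.79 against 9.47 and 8.90. Abcg1, a macrophage and liver exporter, differed by -0.48 ± 0.17 and the cholesteryl ester hydrolase gene Nceh1 by -0.53 ± 0.17. Abca1, which loads cholesterol onto nascent HDL, differed by -0.19 ± 0.17.

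The plot of named genes shows the 12 largest differences in each direction among genes whose genotypes did not overlap and whose unadjusted p was under 0.05, leaving out predicted genes and small RNAs. Beside the 7 sterol enzymes and Fasn on the higher side stood Gask1a, a Golgi kinase family gene, Cyp39a1, an oxysterol hydroxylase of bile acid synthesis, Tff3, a mucosal peptide gene, and Rdh16f2, a retinol dehydrogenase gene. Gask1a read 6.13 and 6.03 in the controls and 7.06 and 7.26 in the knockout livers, and Cyp39a1 read 6.82 and 7.07 against 7.85 and 8.15. Rdh16f2 read 9.12 and 9.11 against 10.13 and 10.03. In these 3 genes the replicates of a genotype lay close together, and the differences were 1.08 ± 0.14, 1.06 ± 0.16 and 0.97 ± 0.13. Their adjusted p by limma with Benjamini-Hochberg adjustment were 0.192, 0.272 and 0.192.

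On the lower side Themis, Zfp991 and Mfsd2a lay below controls by a like amount on both knockout arrays. Themis, a T-cell receptor signalling gene, read 6.55 and 6.18 in control livers and 4.72 and 4.91 in knockout livers, a difference of -1.55 ± 0.16. Its Benjamini-Hochberg adjusted p by limma was 0.101, with a range from 0.00166 to 0.344 over the alternatives. Zfp991, a zinc finger gene, read 8.60 and 8.26 against 7.18 and 7.37. Mfsd2a, which carries lysophosphatidylcholine and is switched on by fasting in liver, read 9.60 and 9.42 against 8.50 and 8.43. Neither had any overlap, at -1.16 ± 0.16 and -1.05 ± 0.14, and by limma the Benjamini-Hochberg adjusted p was 0.192 for both. For Gpnmb, Mmp12, Ly6d, Fitm1, Cyp2c38, Cd36, Mogat1 and Gpr137b knockout replicate 1 lay lower than replicate 2, with differences between them from -2.89 to -0.76. Gpnmb, which lipid-laden macrophages express strongly, read 9.27 and 9.34 in controls, 5.45 on knockout replicate 1 and 8.34 on knockout replicate 2.

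**Figure D3:**
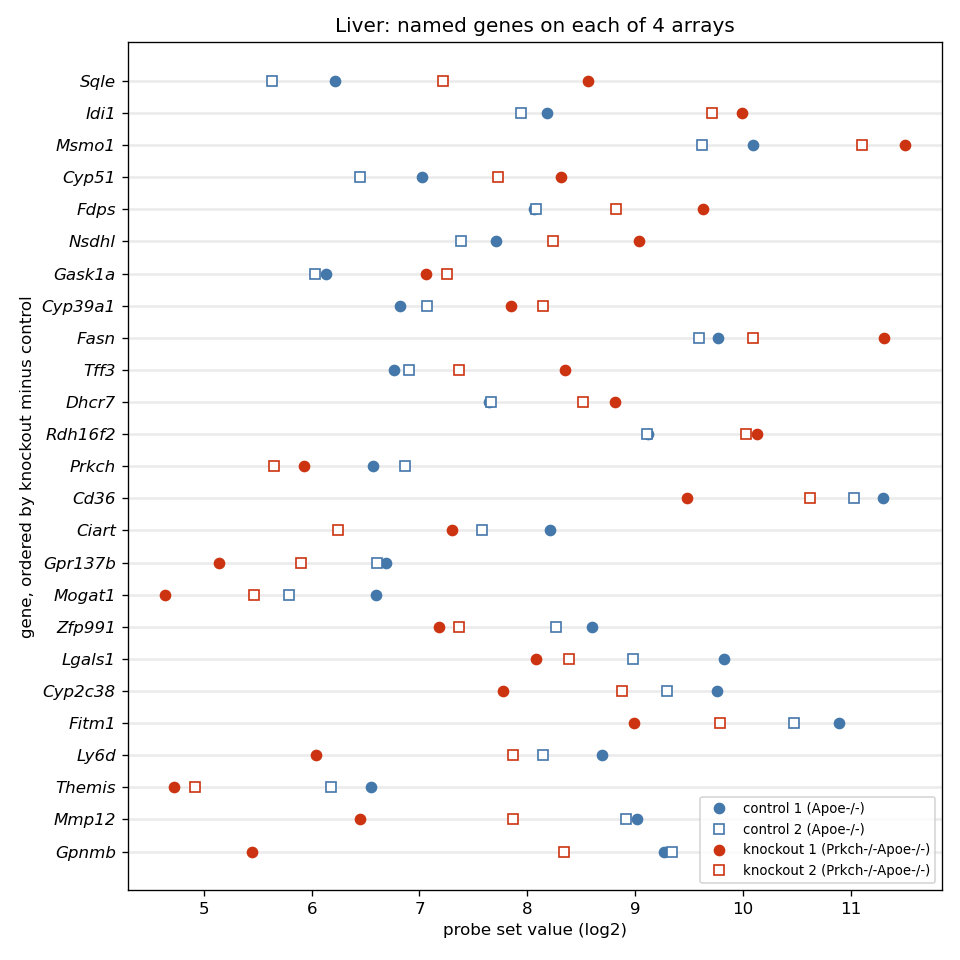
Probe set value (log2) on each of the 4 arrays for Prkch and, among genes with no overlap and an unadjusted p under 0.05 (predicted genes and small RNAs left out), the 12 with the largest difference in each direction; blue marks controls and red knockouts, circles replicate 1 and squares replicate 2. Rows are ordered by knockout minus control, from Sqle at 1.97 to Gpnmb at -2.41, and only Idi1 passed the test over all genes.

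Genes of fatty acid synthesis lay higher mainly on 1 knockout array. Of 14 tested lipogenic genes 11 lay higher, and their median was 0.58 on knockout replicate 1 against -0.05 on the other knockout. Fasn, the fatty acid synthase gene, read 9.77 and 9.60 on the control arrays and 11.31 and 10.10 on the knockout arrays. Acly, which makes cytosolic acetyl-CoA, read 9.37 and 9.21 against 10.71 and 9.51. Both genes had no overlap between genotypes, yet most of each difference, 1.02 ± 0.33 and 0.82 ± 0.33, came from knockout replicate 1. The acetyl-CoA carboxylase genes Acaca and Acacb differed by 0.44 ± 0.16 and 0.69 ± 0.25. Scd1, the main liver desaturase, went the other way at -0.42 ± 0.21, and so did its relative Scd2, at 8.08 and 8.19 in the controls and 7.40 and 7.66 in the knockout livers. Thrsp, a lipogenic regulator, spanned both sides, at 10.95 and 10.20 in control livers and 12.05 and 9.94 in knockout livers.

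Genes that store triglyceride lay lower. Of 19 tested lipid droplet genes 18 lay lower, 10 of them with no overlap, against 18.0% of all genes. Their median was -0.30 (-0.43 and -0.18 on the knockout arrays), and -0.15 without control replicate 1. Fitm1, which helps droplets form, read 10.89 and 10.48 on the control arrays and 8.99 and 9.79 on the knockout arrays. Pparg, the nuclear receptor of fat storage, read 8.67 and 7.92 against 7.10 and 7.38, and its target Cidec, a droplet fusion gene, 7.56 and 6.96 against 6.31 and 6.65. The genotypes did not overlap in any of these, at -1.30 ± 0.26, -1.06 ± 0.24 and -0.78 ± 0.21. Plin2, the coat protein of liver droplets, differed by -0.30 ± 0.15. Of 11 triglyceride synthesis genes 9 lay lower, with a median of -0.10 that was -0.06 without control replicate 1. Among these Mogat1, a monoacylglycerol acyltransferase gene, read 6.60 and 5.79 against 4.63 and 5.46, and Gpam, which starts glycerolipid synthesis, lay higher at 0.46 ± 0.18.

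Genes that burn fatty acids also lay lower, and again more on knockout replicate 1. Of 21 tested genes of fatty acid oxidation 21 lay lower in the mean, with medians of -0.46 and -0.07 on knockout replicates 1 and 2. With knockout replicate 1 left out, 7 of them lay higher instead. PPAR alpha targets showed the same split: 19 of 20 lay lower, with a median of -0.86 on replicate 1 and -0.17 on replicate 2. The medians of the mean difference, -0.28 for oxidation and -0.49 for PPAR alpha targets, were -0.17 and -0.31 without control replicate 1. Pex11a, a peroxisome division gene, read 10.18 and 9.82 in the controls and 8.58 and 9.38 in the knockout livers, and Aldh3a2, a fatty aldehyde dehydrogenase gene, read 12.46 and 12.30 against 10.92 and 11.98. Angptl4, a fasting-induced inhibitor of lipoprotein lipase, was lower on both, at 8.86 and 9.22 against 8.62 and 8.25. Those 3 genes had no overlap between genotypes. Acot1 and Cyp4a14, which respond strongly to PPAR alpha, did: Cyp4a14 read 13.23 and 13.25 in control livers and 12.03 and 13.81 in knockout livers. Cpt1a, the entry step of mitochondrial oxidation, differed by -0.36 ± 0.19, and Ppara itself by -0.22 ± 0.20.

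**Figure D4:**
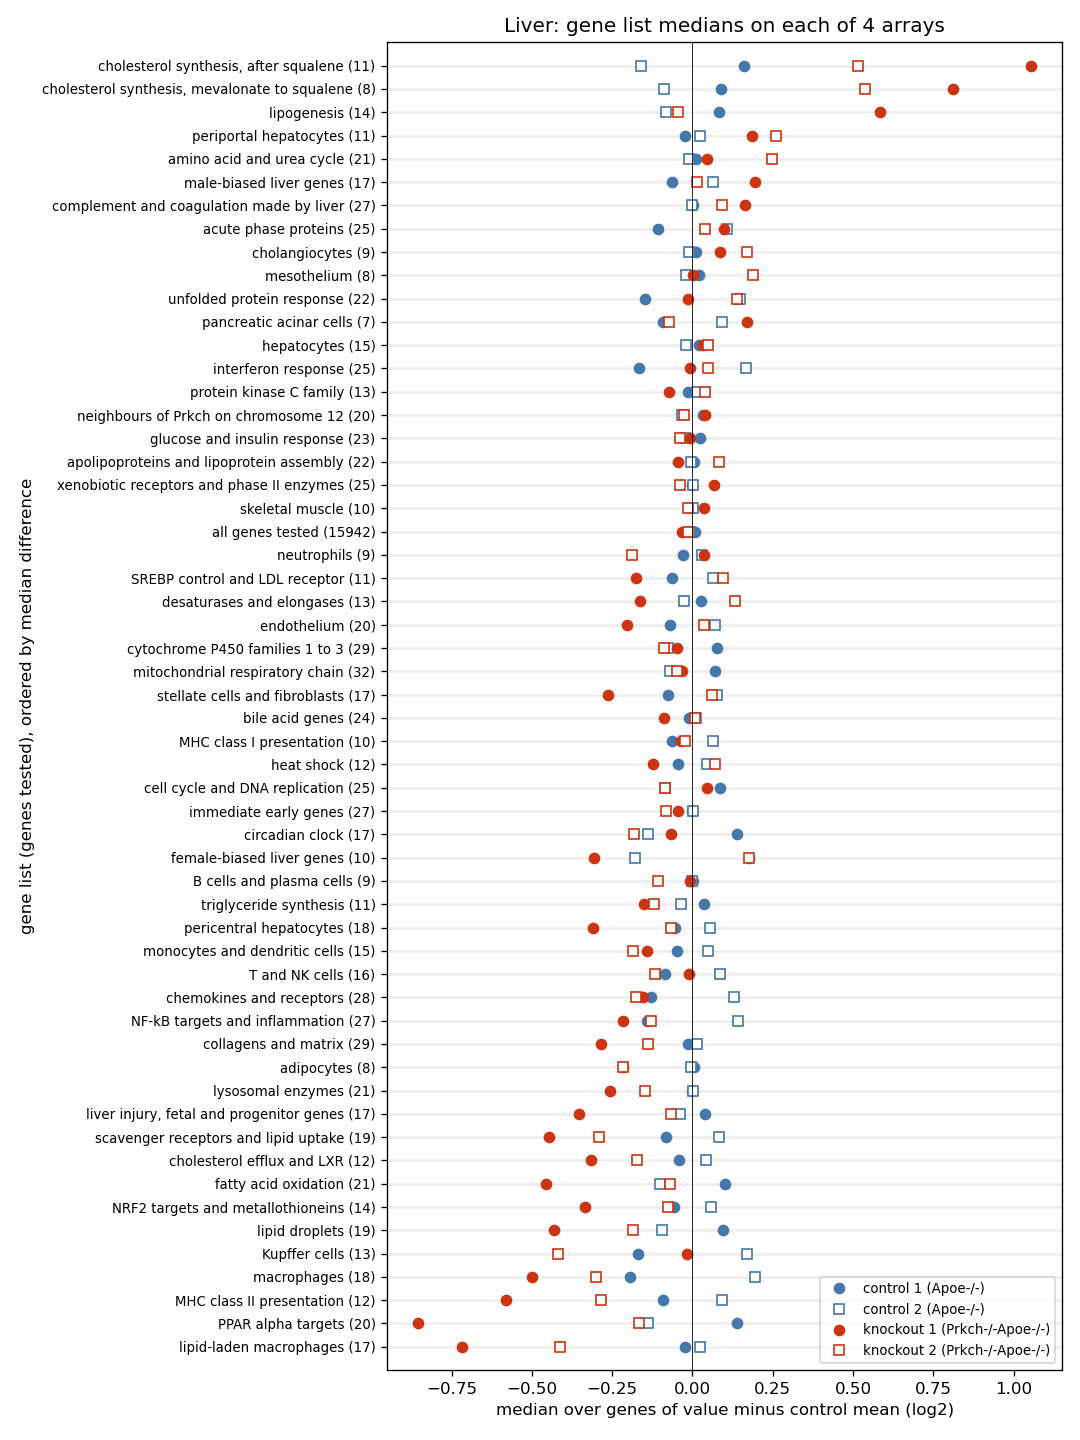
Median over the tested genes of each list of the value minus its control mean (log2) on each array, with the number of genes tested in brackets and lists ordered by their median difference; circles are replicate 1, squares replicate 2, blue controls and red knockouts. The segments of cholesterol synthesis lie furthest to the right on both knockout arrays, at 0.81 and 1.06 and at 0.54 and 0.51; PPAR alpha targets lie at -0.86 and -0.17 and lipid-laden macrophage genes at -0.72 and -0.41.

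Bile acid genes did not lie to one side, with 10 of 24 tested higher and 14 lower and a median of -0.06. Slco1a4, a bile acid and drug uptake carrier, read 8.42 and 8.41 on the control arrays and 9.01 and 9.34 on the knockout arrays, and its relative Slco1a1 read 10.79 and 10.92 against 11.48 and 11.25. Both lay clear of the controls, at 0.76 ± 0.15 and 0.51 ± 0.14. Abcc3, which exports bile acids into blood, and Nr0b2, the bile acid-induced repressor SHP, lay lower at -0.75 ± 0.22 and -0.68 ± 0.22. Cyp7a1, the rate-limiting enzyme, overlapped, at 10.77 and 10.36 against 9.99 and 10.91. Cyp8b1, which makes cholic acid, was low on knockout replicate 1 alone, at 9.09 against 10.89 on the other knockout and 11.13 and 10.58 in controls.

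Of 29 tested cytochrome P450 genes of the drug-handling families 13 lay higher and 16 lower. Cyp3a11, the main drug-metabolising enzyme of its family, read 11.72 and 11.70 in the controls and 11.23 and 11.12 in the knockout livers, a difference of -0.53 ± 0.13. Cyp2c38 read 9.76 and 9.29 against 7.78 and 8.88. Some other genes varied as much within a genotype: Cyp17a1, a steroid hydroxylase gene, read 9.17 on knockout replicate 2 and 6.94 on knockout replicate 1, with 6.88 and 7.12 in controls. Male-biased liver genes lay higher in 12 of 17 cases, with a median of 0.14 (0.20 and 0.01 on the knockout arrays), and female-biased ones in 3 of 10, with a median of -0.09 (-0.31 and 0.18). Without control replicate 1 these medians were 0.03 and 0.15.

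Among secreted liver proteins, complement and coagulation genes lay slightly higher, 22 of 27, with a median of 0.11 (0.16 and 0.09 on the knockout arrays). The terminal complement genes C8a and C8b read 11.54 and 11.61, and 11.44 and 11.72, in controls, against 12.06 and 11.88, and 12.03 and 11.95, in knockouts. Apolipoprotein and lipoprotein assembly genes were even, 11 higher and 11 lower of 22. Apom, the HDL protein that carries sphingosine phosphate, read 10.05 and 10.01 in control livers and 10.77 and 10.57 in knockout livers, and Lpl, lipoprotein lipase, read 8.90 and 9.12 against 7.89 and 8.67. Neither overlapped, at 0.64 ± 0.14 and -0.73 ± 0.24. Of 25 acute phase genes 17 lay higher, with a median of 0.09 that turned to -0.02 without control replicate 1. Apcs, serum amyloid P, lay higher at 0.55 ± 0.13, and Lcn2, lipocalin 2, lower at -0.70 ± 0.29. The serum amyloid gene Saa1 spread within both genotypes, at 8.99 and 10.17 on the control arrays and 10.90 and 8.80 on the knockout arrays.

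Genes of glucose handling and insulin response were even, with 11 of 23 higher, 12 lower and a median of 0.00. Txnip, a glucose-induced brake on glucose uptake, read 10.91 and 10.86 in the controls and 10.25 and 10.12 in the knockout livers, a difference of -0.69 ± 0.13. Pck1, of gluconeogenesis, overlapped, at 12.23 and 12.77 against 11.83 and 12.28. Of 21 genes of amino acid metabolism and the urea cycle 16 lay higher, with a median of 0.14 that came mostly from knockout replicate 2 (0.04 and 0.25). Phgdh, the first step of serine synthesis, read 5.90 and 5.39 against 6.36 and 6.24. NRF2 targets and metallothioneins lay lower in 12 of 14 cases, with a median of -0.29 that came mostly from knockout replicate 1 (-0.33 and -0.08) and was -0.19 without control replicate 1. The haem oxygenase gene Hmox1 read 9.25 and 9.37 in control livers and 8.60 and 8.74 in knockout livers, and the metallothionein gene Mt2 read 8.69 and 9.51 against 8.05 and 8.36. Both were lower on each knockout array than on any control, at -0.64 ± 0.13 and -0.90 ± 0.25.

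Clock genes are given because they move with the hour of sampling, which the sources used here do not give. Of 17 tested 7 lay higher and 10 lower. Ciart, a repressor of the clock, read 8.21 and 7.58 on the control arrays and 7.30 and 6.24 on the knockout arrays, and Per1 read 7.25 and 7.34 against 7.02 and 6.47. Both were lowest on knockout replicate 2. Dbp, a clock output gene, differed by -0.51 ± 0.28, Nr1d1 by -0.63 ± 0.45 and Arntl, which peaks in the opposite phase, by 0.23 ± 0.31. The part of the sampling hour in these values was not tested.

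Genes of lipid-laden macrophages, which take up lipid and digest it in lysosomes, lay lower in knockout livers. Of 17 tested 15 lay lower and 12 had no overlap, against 18.0% of all genes, with a median of -0.61 (-0.72 and -0.41 on the knockout arrays). Mmp12, macrophage elastase, read 9.02 and 8.91 in the controls and 6.44 and 7.87 in the knockout livers. Cd63, a lysosomal membrane gene, read 6.75 and 6.58 against 5.38 and 5.88, and Lgals3, galectin 3, read 8.89 and 9.02 against 8.10 and 8.36. In all 3 both knockout arrays lay below both controls, at -1.81 ± 0.38, -1.03 ± 0.18 and -0.73 ± 0.15. Itgax differed by -0.61 ± 0.14, the lysosomal pump gene Atp6v0d2 by -0.72 ± 0.17 and Trem2, a lipid-sensing receptor, by -0.49 ± 0.18. Summed on the linear scale, the 18 genes of the list on the array came to 53.3% and 79.1% of the control mean in knockouts, against 101% and 99.3% on the control arrays. The brightest of them is Plin2, which hepatocytes also express as a droplet coat protein; without it the sum came to 44.0% and 72.7%.

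General macrophage markers lay lower in 18 of 18 cases, with a median of -0.39 (-0.50 and -0.30 on the knockout arrays), and their sum was 66.4% and 75.7% of the control mean against 84.9% and 115% in controls. Tyrobp, a signalling adaptor of myeloid cells, read 8.74 and 8.88 in control livers and 8.19 and 8.09 in knockout livers, and Cd68, a lysosomal glycoprotein, read 9.58 and 9.94 against 8.71 and 9.12. Lyz2, lysozyme, differed by -0.65 ± 0.20. The lineage receptors lay closer to controls: Csf1r, the receptor of macrophage growth factor, differed by -0.18 ± 0.16 and Adgre1, the surface marker F4/80, by -0.29 ± 0.15. Leaving out the first control array gave a median of -0.56, and leaving out the other control gave -0.21. In whole liver, fewer cells of a type and less RNA per cell cannot be told apart.

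Kupffer cell markers, of the liver's resident macrophages, split the knockout arrays the other way. Timd4, a receptor for dying cells, read 7.50 and 8.09 in controls, 8.04 on knockout replicate 1 and 6.25 on knockout replicate 2, and Vsig4, a complement receptor, read 10.14 and 10.62, then 10.36 and 8.87. Marco, a scavenger receptor, followed the same order at 7.04 and 7.91, then 7.63 and 6.50. These genes were low on knockout replicate 2 alone, whereas Gpnmb and Mmp12 were lowest on knockout replicate 1. Clec4f, another marker restricted to these cells, differed by -0.19 ± 0.24. Over the list 12 of 13 lay lower in the mean, with medians of -0.02 and -0.42 on knockout replicates 1 and 2. The median of the mean difference, -0.30, was -0.01 without control replicate 2. The genotypes did not overlap in 3 of the 13 members, a share close to the 18.0% of all genes: Cd5l, a secreted macrophage protein gene, at 11.47 and 11.71 against 10.96 and 10.98, and Clec1b and Il18bp, at -0.40 each.

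MHC class II genes, which antigen-presenting cells use to display peptides, lay lower in 12 of 12 cases, 8 with no overlap against 18.0% of all genes. Their median was -0.45 (-0.58 and -0.28 on the knockout arrays), and -0.27 without control replicate 2. H2-Ab1 read 10.03 and 10.07 on the control arrays and 8.64 and 9.58 on the knockout arrays, and Cd74, the invariant chain, read 9.08 and 9.43 against 8.08 and 8.81. The sum over the list was 53.2% and 77.0% of the control mean in knockouts, and 90.2% and 110% in controls. MHC class I genes, which nearly all cells carry, had a median of -0.06. Interferon-induced genes had one of 0.04, with 15 of 25 higher, which turned to -0.15 without control replicate 1. The part of macrophage and dendritic cell number in the values of these lists was not tested.

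Inflammatory genes under NF-kB lay lower in 21 of 27 cases, 9 with no overlap against 18.0% of all genes. Their median was -0.17 (-0.22 and -0.13 on the knockout arrays). Its size depended on the control array, at -0.29 without control replicate 1 and -0.03 without control replicate 2. Ccl2, the monocyte chemoattractant, read 5.87 and 6.20 in the controls and 5.18 and 5.61 in the knockout livers, and Vcam1, an adhesion receptor, read 8.96 and 9.33 against 8.27 and 8.69. Neither pair overlapped, at -0.64 ± 0.18 and -0.66 ± 0.19. Of 28 chemokine and receptor genes 17 lay lower, with a median of -0.13, which was 0.00 without control replicate 2. Ccl6, a macrophage chemokine, read 9.44 and 9.60 against 8.72 and 8.65 and was the most even of them, at -0.84 ± 0.13. Cxcl9, a chemokine for activated T cells, differed by -0.63 ± 0.15. The cytokine gene Tnf differed by -0.17 ± 0.16 and Il1b by 0.02 ± 0.14.

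Other T-cell genes lay closer to controls than Themis. Of 16 tested markers of T and NK cells 11 lay lower, with a median of -0.13 that turned to 0.05 without control replicate 2. Cd3e, of the T-cell receptor complex, read 5.98 and 6.35 in control livers and 6.04 and 5.76 in knockout livers, and Cd8a differed by -0.13 ± 0.16 and Cd4 by 0.03 ± 0.13. The genotypes of Cd3e overlapped. Another 8 listed markers, among them Cd3d, lay below the filter on dim genes. B-cell and neutrophil markers had medians of -0.10 and -0.04, which turned to 0.07 without control replicate 1 and to 0.03 without control replicate 2.

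Matrix and zonation lists had smaller medians. Of 29 collagen and matrix genes 24 lay lower, with a median of -0.18 (-0.29 and -0.14 on the knockout arrays). Col3a1, of fibrillar collagen, read 8.03 and 7.85 on the control arrays and 7.13 and 7.49 on the knockout arrays, and Sparc, a matrix glycoprotein, read 9.24 and 9.11 against 7.75 and 8.77. Stellate cell and fibroblast markers summed to 76.5% of the control mean on knockout replicate 1 and to 101% on knockout replicate 2. Periportal hepatocyte genes lay higher in 10 of 11 cases, with a median of 0.16 (0.19 and 0.26 on the knockout arrays), and pericentral ones lower in 14 of 18, with a median of -0.12 (-0.31 and -0.07). Cdh1, E-cadherin, which is stronger in periportal cells, read 7.93 and 8.06 in the controls and 8.87 and 8.70 in the knockout livers, a difference of 0.79 ± 0.14. Glul, glutamine synthetase of the cells around the central vein, differed by -0.13 ± 0.17. Hepatocyte markers summed to 103% and 104% of the control mean in knockouts.

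**Figure D5:**
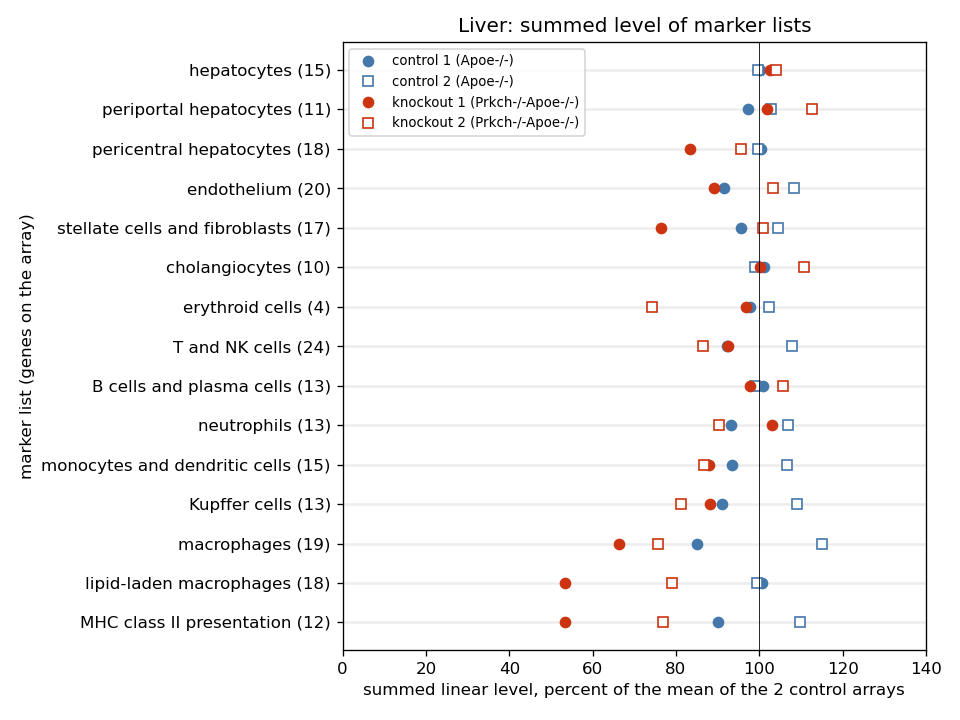
Summed linear level of each marker list on each array, as a percent of the mean of the 2 control arrays (horizontal axis), with the number of genes on the array in brackets; circles are replicate 1, squares replicate 2, blue controls and red knockouts. Hepatocyte sums lie between 99.7% and 104%, while sums of lipid-laden macrophage genes are 53.3% and 79.1% in knockouts and macrophage sums 66.4% and 75.7%.

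The liver difference was also set against that in thioglycolate-elicited peritoneal macrophages, with 3 arrays of Prkch-/-Apoe-/- and 3 of Apoe-/- females on regular diet. In each genotype the macrophage donors were aged 18, 17 and 27 weeks for replicates 1, 2 and 3. Tissue goes with sex, diet, feeding and age there, so these cannot be told apart. Of 16363 genes none had a liver difference that departed from the macrophage difference by limma (Benjamini-Hochberg adjusted p under 0.05), and 345 (2.11%) did at an unadjusted p under 0.05. The smallest adjusted p was 0.528, for Themis, whose difference was -1.55 in liver and 0.05 in macrophages. Themis was dim in macrophages, at 5.16, 4.71 and 5.06 in controls and 4.95, 5.06 and 5.06 in knockouts, where the liver filter was 4.87. Idi1 differed by 1.79 in liver and 0.33 in macrophages, Msmo1 by 1.45 and -0.01, and Sqle by 1.97 and 0.24. Gpnmb and Mmp12, at -2.41 and -1.81 in liver, differed by -0.17 and -0.19 in macrophages, where both are at 12.85 or above on every array. Rdh16f2, Zfp991, Mfsd2a, Gask1a, Apom, Cxcl5, Ptgdr and Zfp709 complete the 10 smallest p of this contrast, with departures between -1.06 and 1.28. Macrophage control replicate 3 and knockout replicates 2 and 3 share between 16075 and 18000 identical values per pair, against 0 to 69 for the other pairs. Each of Themis, Mfsd2a, Zfp709, Gask1a, Cxcl5, Apom and Ptgdr had the same value on control replicate 3 and knockout replicates 2 and 3. The part of those shared values in their place among the smallest p was not tested. With the sharing arrays as a term in the fit limma again called none (Themis -1.56, Benjamini-Hochberg adjusted p = 0.546). By that limma fit the Benjamini-Hochberg adjusted p was also 0.546 for Mfsd2a, 0.706 for Gask1a and 0.739 for Zfp709. It was 0.997 for Cxcl5, Apom and Ptgdr.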

How the data were processed

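Liver RNA for 4 arrays was labelled with biotin and hybridised to a mouse whole-transcript array, per the labels. Per the submitters' processing notes, the authors used Affymetrix Expression Console; version, algorithm and reference set were not given in the sources used here. From their range, the deposited values were taken as log2 summaries per probe set. They were also taken as already normalized, which a range cannot show, and no step was repeated. Of 35557 probe sets, 21789 had 1 gene symbol in the platform annotation, 1621 had several and 12147 had none listed; only the first were used. A gene was represented by its probe set with the highest mean, and genes below the 30th percentile of all probe set means on the liver arrays (4.87 log2) were left out, which kept 15942 of 19938 genes.

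The liver arrays were fitted alone with limma 3.58.1 in R 4.3.3 (lmFit and eBayes, knockout minus control, no covariate), with Benjamini-Hochberg adjustment over all genes. A second limma fit over 10 arrays tested liver minus macrophage difference. The number of arrays, 2 per genotype, limits the precision. Named genes are Prkch, Apoe, the 12 largest differences in each direction among called genes, filled up from non-overlapping genes whose unadjusted p was under 0.05, the 6 members of each list with the smallest p and members at a known step, the 6 genes that varied most within a genotype, and the 10 smallest p of the tissue contrast; predicted genes and small RNAs were not named. The genes, 56 lists with 1130 entries and the tests were chosen with earlier results of these data known. Lists are described by counts and medians, without a test. The fit was tested on simulated data with independent values and, for each gene, the same spread on all 4 arrays. That simulation does not cover an array that stands apart, as knockout replicate 1 does. Alternatives were other normalization, filters, probe set rules, variance models, a replicate block and leaving out each array; leaving out arrays of the tissue contrast, a term for macrophage arrays with shared values and list sums without their brightest member were chosen after seeing the data. Aorta arrays were not used here.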

Additional observations from a re-analysis of the deposited data

How the results depend on the processing

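With 2 arrays per genotype, the number of called genes changed with the normalization, the filter, the variance model and the arrays kept. The 1 called higher gene, Idi1, was called again by limma with each array centred on its median, with the filter at the median of all probe sets, with the mean of a gene's probe sets and with robust eBayes. The count was 0 with quantile normalization, with no filter, with an intensity trend and with all 10 arrays in 1 fit; the cause was not tested. The labels do not say that replicate numbers tie livers together, and the replicate differences of the genotypes correlated at r = 0.11 across genes; with a replicate block limma called 11 higher and 12 lower genes. Leaving out 1 array in turn gave 0 to 15 higher and 0 to 21 lower genes. Those calls, 15 and 21, came without knockout replicate 2, when the lone knockout array is assumed to vary like the controls; leaving out any of the other 3 gave 0. The tissue contrast gave 0 genes under the other normalizations, filters, probe set rule, variance models and replicate block tried, and with the macrophage arrays of shared values as a term, and 0 to 1 on leaving out 1 array. Of the values of named genes under the alternatives, 4007 kept their direction and side of the threshold. Another 62 changed sign without being called, and the rest crossed the threshold. As only Idi1 passed in the main fit, keeping the side mostly means staying uncalled. The other variance models, the fit of all 10 arrays and the replicate block cannot change a difference. The 4007 is therefore no measure of robustness. Of list medians 673 moved by no more than the spread between replicates and 67 by more. That spread comes from the same replicates, so leaving out 1 array can hardly move a median beyond it. Settings that cannot change a difference leave the medians unchanged as well. The 673 was thus largely fixed in advance. No detection call was used, so values near the filter have no stated floor.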

Other observations

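Genes that differed most within a genotype are given as values. Between the knockout arrays Moxd1, a monooxygenase-like gene, differed most, at 9.39 on replicate 1 and 6.06 on replicate 2, with 6.15 and 7.21 in controls. Apoa4, an apolipoprotein gene, read 10.25 and 12.43 on the knockout arrays and 11.96 and 11.62 on the controls. Between the control arrays Bcl6, a transcriptional repressor gene, differed most, at 6.49 and 8.91, with 7.38 and 7.62 in knockouts. Ifi205, an interferon-induced gene, read 4.98 and 6.88, Lpin1, of triglyceride synthesis, 8.41 and 9.98, and the peroxisomal genes Abcd2 and Acot3 read 8.61 and 6.81, and 7.70 and 5.92. In these 5 genes the knockouts lay between the controls or overlapped them on at least 1 array.

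Markers of tissues other than liver were summed as well. Skeletal muscle markers summed to 97.9% and 98.7% of the control mean in knockouts, and those of pancreatic acinar cells to 114% and 98.5%. Adipocyte markers summed to 86.1% and 86.0%. Without Car3, the brightest of them, they summed to 73.6% and 87.0%, with 88.7% and 111% on the control arrays. Adipoq, the fat cell hormone gene, lay below the filter on dim genes. The list also holds Pck1 and Dgat2, which are bright in these livers, so its sum does not speak for fat tissue. Erythroid markers, of which only 4 are on the array and 1 of these is below the filter, summed to 96.7% on knockout replicate 1. Their sum was 74.3% on knockout replicate 2, and 97.7% and 102% on the control arrays. Without Alas2, the brightest, it was 109% and 69.8% in knockouts and 110% and 90.4% in controls. Genes of the mitochondrial respiratory chain had a median difference of -0.05, and those of the cell cycle of -0.08, which turned to 0.02 and 0.04 without control replicate 1. Among genes of the unfolded protein response Herpud1, of endoplasmic reticulum protein disposal, read 12.28 and 12.57 in control livers and 11.88 and 11.93 in knockout livers.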
